A study of Mus musculus with 20 samples.

Results

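The genes described here encode the proteins of the cytosolic ribosome. They were chosen by name, as every gene whose symbol has the form of a large (Rpl) or small (Rps) subunit protein gene, together with Rplp0, Rplp1, Rplp2 and Rpsa, and with at least 10 read pairs in at least 3 of the 18 RNA libraries. Of the 49997 genes in the count tables, 91 had such a name and 87 passed the count rule. These 87 comprised 46 large subunit genes, 31 small subunit genes and 10 paralog or processed copies (Rpl22l1, Rps27l, Rpl36al, Rpl3l, Rps4l, Rpl7l1, Rps3a2, Rps3a3, Rpl6l and Rpl32l). Fau, whose product is a fusion of a ubiquitin-like part to a ribosomal protein, did not have such a name and is set beside the members where it bears on them.

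The study deleted Runx2, a transcription factor gene of the RUNX family, in primary mouse bone marrow cells kept in culture. Polyadenylated RNA was sequenced from HSC (CD201+CD150+cKit+Sca1+Lineage- cells) that were homozygous knockout (hom), heterozygous knockout (het) or wild type (WT), and from HPC (CD201-CD150-cKit+Sca1+Lineage- cells) of the same 3 genotypes, with 3 libraries in each of the 6 groups. The series' design text names both a floxed Runx2 allele and CRISPR deletion, and the labels do not give which of these, or which animals and ages, stand behind a library. The labels also do not say whether the 3 libraries of a group come from separate animals or cultures, so p-values measure the spread between these libraries, which may be technical.

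A ribosome carries 1 copy of nearly every one of these proteins, and its large and small subunits are assembled in the nucleolus from ribosomal RNA and proteins made in the cytoplasm. The messenger RNAs of ribosomal proteins begin with a short run of pyrimidines, the 5′ terminal oligopyrimidine motif, through which mTORC1 and LARP1 set their translation and stability. Blood formation is sensitive to this machinery: loss of 1 allele of certain ribosomal protein genes causes Diamond-Blackfan anaemia in people, and haematopoietic stem cells are known for a low rate of protein synthesis.

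Libraries held 16663497 to 27061457 counted read pairs, so 3 counts, the most that a true level giving 0 counts would hide, correspond to 0.103 to 0.192 CPM (counts scaled by TMM to a common library size). This floor covers counting error only. Runx2 lay at 24.65 to 27.97 CPM in HSC hom, 81.9 to 89.5 CPM in HSC het and 119 to 126 CPM in HSC WT, and at 22.4 to 24.6 CPM in HPC hom, 99.3 to 108 CPM in HPC het and 121 to 128 CPM in HPC WT, in the order of the labels in both populations. Of the sorting markers, Procr (CD201) had 35.2 to 62.5 CPM in HSC and 4.78 to 7.66 CPM in HPC, Slamf1 (CD150) 15.7 to 20.6 CPM in HSC and 3.19 to 12.9 CPM in HPC, and Kit 412 to 599 CPM over all libraries, while Ly6a, which encodes Sca1, was listed at 0 in all 18 libraries. HSC and HPC also differed in sex-linked transcripts: Ddx3y, a Y-linked gene, had 112 to 157 CPM in HSC and 0 in HPC, and Xist had 0 to 1.15 CPM in HSC and 2753 to 4742 CPM in HPC. The populations were deposited as separate count tables, so population, sex and table cannot be told apart in any comparison of HSC with HPC. In bulk RNA, fewer cells of a type and less RNA per cell cannot be told apart either.

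RefSeq promoter windows on GRCm38.p6 (the build of the tables' coordinates, also called mm10) were found for 63 of the 87 members. The 60 bases centred on the annotated start are printed for genes that carry the results below, 30 bases before the start and 30 from it on, read on the gene's strand, with the longest unbroken run of C and T in capitals (in Rps27l the first of a pair of runs of equal length). Rps27 is the 1 member whose hom effect was called different between HSC and HPC, and Rps27l is its paralog.
Rps27: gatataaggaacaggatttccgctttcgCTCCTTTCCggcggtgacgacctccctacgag
Rps27l: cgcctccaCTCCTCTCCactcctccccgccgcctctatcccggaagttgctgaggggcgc
Rpl24 is shown because it was called in HPC het, Rpl39 because it came next to Rps27 in HSC hom against het, and Rps12 and Rpl36a because they differed between the WT populations.
Rpl24: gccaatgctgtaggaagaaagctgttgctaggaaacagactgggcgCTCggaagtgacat
Rpl39: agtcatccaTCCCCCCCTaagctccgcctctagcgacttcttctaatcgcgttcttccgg
Rps12: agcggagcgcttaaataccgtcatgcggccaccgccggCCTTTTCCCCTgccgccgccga
Rpl36a: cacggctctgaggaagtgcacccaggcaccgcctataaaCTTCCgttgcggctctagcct

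These windows lie at chr3:90213619-90213678 on the minus strand for Rps27, chr9:66946056-66946115 on the plus strand for Rps27l (the upstream of 2 annotated starts), chr16:55966245-55966304 on the plus strand for Rpl24, chrX:37085193-37085252 on the minus strand for Rpl39, chr10:23787180-23787239 on the minus strand for Rps12 and chrX:134585624-134585683 on the plus strand for Rpl36a. In Rps27 the run of 9 pyrimidines spans the annotated start itself, beginning 2 bases before it. In Rps12 the run of 11 begins at base 9 of the transcript, and in Rpl24 no run exceeded 3 bases. A run of at least 8 pyrimidines lay within the 60 bases of 35 of the 63 members with a window (55.6%), against 25.8% of all 27025 genes with one. The start base C followed by at least 4 pyrimidines was present in 14 members (22.2%), against 3.01% of all genes. The RUNX core TGTGGT, on either strand (ACCACA), occurred in the 300 bases from 250 before to 50 after the start in 6 members (9.52%), among them Rps12, and in 18.9% of all genes. A match describes the letters of a window and is not a binding site.

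The 87 genes took 7.16% to 9.69% of all counts in a library, and 20.8% to 25.9% of all transcripts when counts were divided by exon length (TPM). The share was 8.05%, 7.92% and 7.33% in HSC hom, 8.35%, 8.41% and 9.69% in HSC het, and 7.65%, 7.33% and 8.34% in HSC WT. HSC het libraries were all above the other HSC libraries, though the lowest het library and the highest WT library lay next to each other. In HPC the share was 7.69%, 7.85% and 7.34% in hom, 7.61%, 7.72% and 8.19% in het, and 7.62%, 7.48% and 7.16% in WT, with overlap between all groups. By an exact two-sided permutation test of 3 libraries against 3, which cannot go below p = 0.1, HSC het differed from HSC WT by 1.05 percentage points (p = 0.1, adjusted p = 0.35 over 21 values) and HPC het from HPC WT by 0.426 percentage points (p = 0.2, adjusted p = 0.382).

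**Figure D1:**
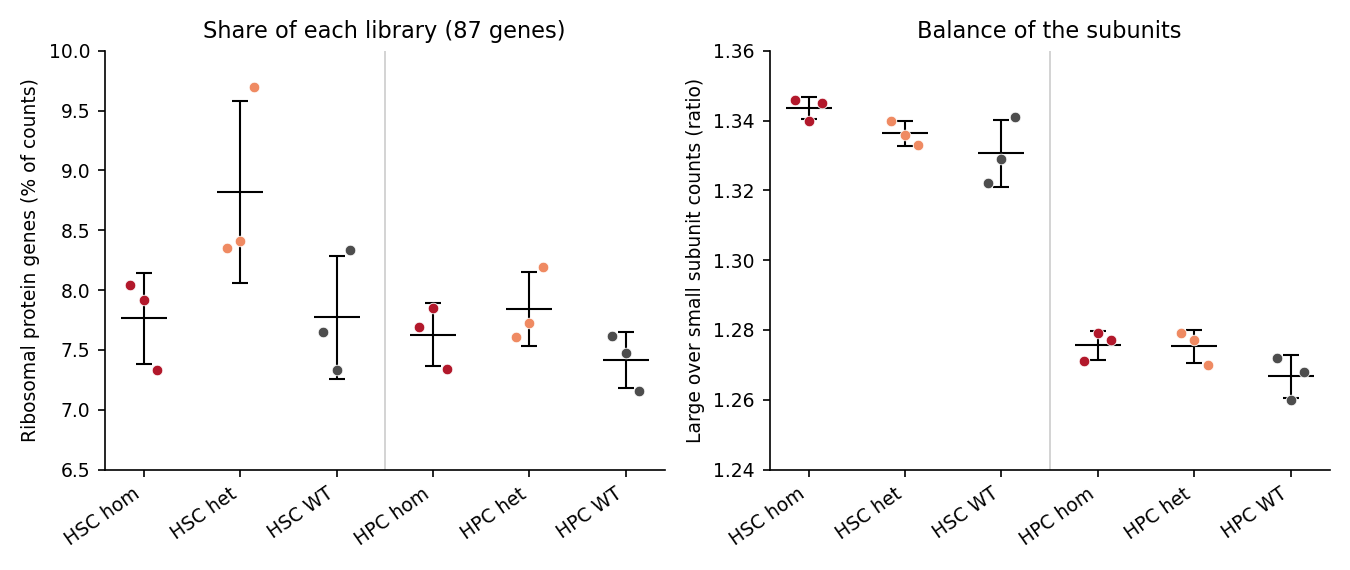
Left, percent of counts taken by the 87 ribosomal protein genes in each library; right, counts of the 46 large subunit genes divided by counts of the 31 small subunit genes. Points are libraries, bars the mean ± SD of 3; the axes do not start at 0. HSC het libraries lie at 8.35% to 9.69%, and the ratio is 1.322 to 1.346 in every HSC library against 1.260 to 1.279 in every HPC library.

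The balance between subunits separated the populations, while genotypes within a population overlapped. Large subunit genes had 1.346, 1.34 and 1.345 counts per small subunit count in HSC hom, 1.34, 1.336 and 1.333 in HSC het and 1.322, 1.329 and 1.341 in HSC WT. The ratio was 1.271, 1.279 and 1.277 in HPC hom, 1.279, 1.277 and 1.27 in HPC het and 1.272, 1.26 and 1.268 in HPC WT. No HSC library overlapped an HPC library. The WT difference of 0.064 had p = 0.1, the smallest possible, by the exact two-sided permutation test (adjusted p = 0.35 over the 21 values).

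The highest mean TPM over 18 libraries belonged to Rps14 (7073 ± 1341, SD), whose loss underlies the anaemia of the 5q- syndrome, Rps3a1 (5867 ± 274), Rpl4 (5290 ± 277) and Rplp1 (5288 ± 1371), a protein of the stalk that recruits elongation factors. The lowest were copies, with Rpl32l at 2.75 ± 1.34, Rps3a3 at 1.81 ± 1.44, Rps4l at 1.55 ± 1.35 and Rpl3l, a muscle paralog of Rpl3, at 1.14 ± 0.684 TPM. The 77 genes other than the copies each had at least 1339 counts in every library. Just inside the count rule were Rps3a3 (10 counts in 9 libraries), Rps4l (10 libraries), Rpl32l (12) and Rpl3l (15). Rps3a3 passed through the 9 HSC libraries and 0 HPC libraries, and Rps4l through the 9 HSC libraries and 1 HPC library, so no fold between the populations is given for them. Rpl3l passed through the 9 HSC libraries and 6 HPC libraries, the hom and het ones. Those just outside the rule were Rps12l1 (2 libraries, at most 13 counts), Rpl39l (at most 8 counts), and Rpl10l and Rpl32p (0 counts). RefSeq lists Rps3a2, Rps3a3, Rpl6l and Rps4l as pseudogenes, and since reads with several placements were not counted, the levels of these copies and of genes with near-identical copies are uncertain.

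Rps29, which encodes a zinc-binding protein of the small subunit head, varied most among the 77, by 4.23-fold between its highest and lowest library in CPM, followed by Rpl38 (2.65-fold), a large subunit gene mutated in the Tail-short mouse. Rps4x, the X-linked small subunit gene, varied least (1.26-fold), beside Rplp0 (1.27-fold), the base of the stalk. Several members share exon bases with another gene, where unstranded counting drops read pairs. The shared fraction was 47.3% of exon bases in Rpl5, 34.2% in Rpsa, 33.3% in Rpl31, 30.1% in Rps25, 29.3% in Rpl35a and 29.1% in Rpl19, and read pairs from those bases are missing from their counts.

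In HSC het, the fold changes of ribosomal protein transcripts over HSC WT were shifted upward together, yet no single gene passed the test and single libraries overlapped. All 77 genes other than the copies had a positive log2 fold change, with a median of 0.21, against 0.01 for all genes tested, and the median of all 87 members was 0.20. None of the 87 was called (adjusted p under 0.05 by the edgeR quasi-likelihood test over all genes), where 0.0334% of 14959 genes were called in this comparison. 44 of 87 members had an unadjusted p under 0.05, against 2067 of 14959 genes. HSC het libraries were all above the HSC WT libraries for 21 members (24.1%), against 10.5% of all genes. The median log2 fold change was 0.21 in large subunit genes, 0.20 in small subunit genes and 0.09 in the copies.

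The size of the shift differed between libraries of 1 genotype. Against the mean of the HSC WT libraries, the median log2 deviation of the 77 genes was 0.1099, 0.1129 and 0.3527 in HSC het. In the WT libraries themselves it was -0.02528, -0.08456 and 0.1106, so WT replicate 3 lay just above het replicate 1. HSC het replicate 3 had all 77 genes above the WT mean, but so did HSC WT replicate 3, while WT replicate 2 had 0 and HSC hom replicate 3 had 3. Without HSC het replicate 3, the median of the 77 was 0.12, with 72 positive and 5 negative. Dropping any other HSC het or WT library left all 77 positive, with medians of 0.16 to 0.26.

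**Figure D2:**
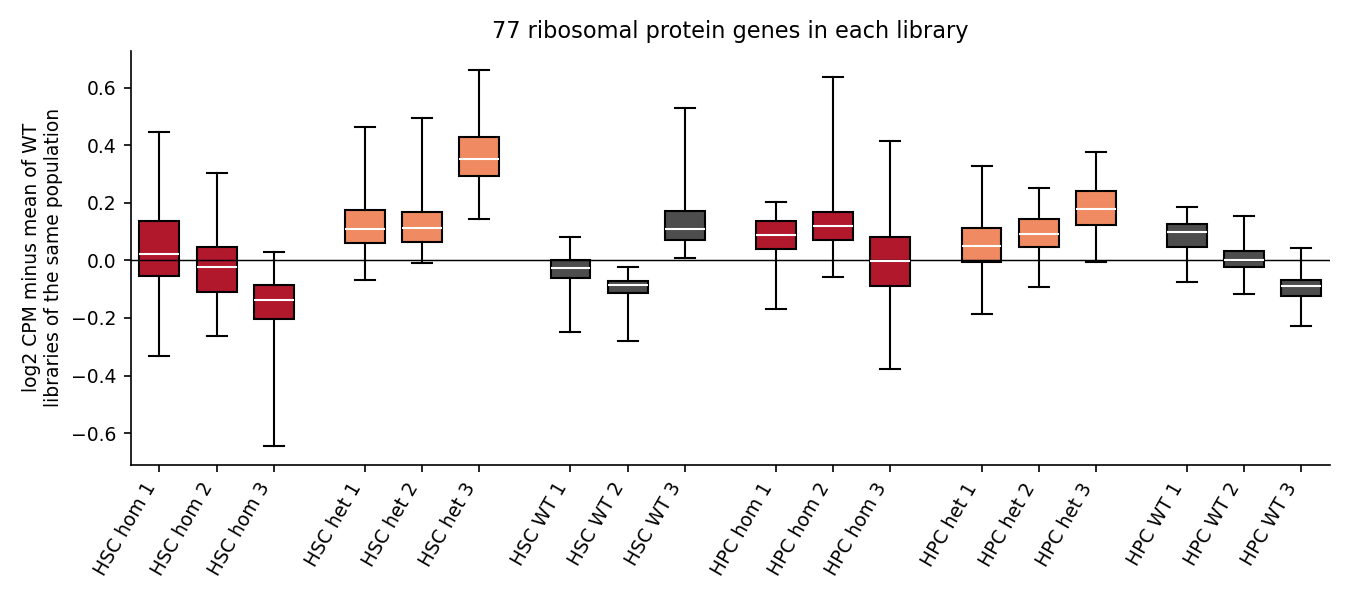
For each library, the log2 CPM of the 77 ribosomal protein genes other than the copies, minus the gene's mean in the WT libraries of the same population. Boxes give the quartiles and white lines the median over genes, and whiskers reach the lowest and highest gene; HSC het replicate 3 has a median of 0.35, and the WT libraries themselves spread from -0.08 to 0.11 in HSC and from -0.09 to 0.10 in HPC.

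The largest fold changes over HSC WT were those of Rps4l, a low copy (0.60 ± 0.44), and Rps29. Rps29 had 161, 164 and 184 CPM in HSC het and 97.8, 95.7 and 168 CPM in HSC WT, which gave 0.50 ± 0.26 (log2 fold change ± SE throughout, edgeR adjusted p = 0.439). WT replicate 3 lay within the het range, so the groups overlapped. Rpl36 had 403, 415 and 486 CPM in HSC het and 304, 293 and 357 CPM in HSC WT, without overlap, at 0.46 ± 0.11 (edgeR adjusted p = 0.169, the smallest of any member). At the other end, Rps3a2 and Rpl7l1, both copies, had log2 fold changes of -0.28 and -0.10 in HSC het over HSC WT. Across the 77 genes, the log2 fold change was smaller in longer genes (Spearman rho -0.40 over genes of the same libraries, which are not independent), with a median of 0.23 in the 39 genes up to 862 bases and 0.17 in the 38 longer ones. This rho was the widest of all comparisons. It was -0.03 in HSC hom over WT, 0.23 in HSC hom over het, -0.23 in HPC hom over WT and -0.16 in HPC het over WT. Fau also lay above HSC WT in HSC het, at 0.40 ± 0.11 (edgeR adjusted p = 0.188). HSC markers (14 genes, 1 at 0 in each group, Ly6a) summed to 2153 to 2402 CPM in HSC het and 1898 to 2044 CPM in HSC WT, with none of 13 tested called. The 16 genes of S phase had a median log2 fold change of -0.23 with none called. The part of either in the ribosomal protein values was not tested.

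In HSC hom the members were centred on HSC WT. The median log2 fold change was -0.03, against 0.00 for all genes, with 35 members positive and 52 negative. None of 87 was called, where 2.01% of genes were. An unadjusted p under 0.05 was found for 9 of 87 members, against 2759 of 14959 genes. DESeq2 called 1, and the edgeR test without a filter on low counts called 5. Shares of all genes in these fits are not given here. HSC hom libraries were all below HSC WT libraries for 16 members (18.4%), against 14.5% of all genes, and all above for 0. Leaving out 1 library at a time moved the median between -0.08 and 0.04, so its sign was not fixed. Of 18 genes of G2 and mitosis 5 fell in HSC hom, and none of 24 initiation factor, 17 assembly chaperone or 77 mitochondrial ribosomal protein genes was called. T cell markers (12 genes, 3 at 0 in HSC hom and 5 in HSC WT) summed to 61.04 to 61.9 CPM in HSC hom and 88.3 to 100.7 CPM in HSC WT. Of 7 tested, 3 were called lower and none higher, and the part of these markers in the members' values was not tested.

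Rps27, whose product sits on the small subunit and which is mutated in rare Diamond-Blackfan anaemia, and its paralog Rps27l, a p53 target, were both lower in every HSC hom library than in every HSC WT library. Rps27 had 274, 294 and 267 CPM in HSC hom, 424, 405 and 460 CPM in HSC het, and 318, 309 and 419 CPM in HSC WT. Its hom libraries were the lowest and its het libraries overlapped WT through WT replicate 3. HSC hom over WT gave -0.30 ± 0.10 (edgeR adjusted p = 0.148). Rps27l had 73.8, 73.8 and 65.1 CPM in HSC hom and 88.8, 82.8 and 92 CPM in HSC WT, which gave -0.28 ± 0.10 (edgeR adjusted p = 0.16). The largest negative changes were those of the processed copies Rpl6l (-0.73 ± 0.26, edgeR adjusted p = 0.154) and Rps3a2 (-0.66 ± 0.18, edgeR adjusted p = 0.0691), with Rps3a2 at 4.69, 4.72 and 6.03 CPM in HSC hom and 9.01, 8.22 and 7.62 CPM in HSC WT. The largest positive changes were Rpl32l at 0.46 ± 0.55 and Rpl3l at 0.39, both of them copies with few counts.

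HSC hom was also set against HSC het, with the same hom and het libraries as in the comparisons with WT, and was lower for 83 of 87 members. The median log2 fold change was -0.22, against 0.00 for all genes, and 55 members (63.2%) had hom libraries all below het libraries, against 9.85% of all genes. None was called, where 0.0134% of genes were, although 54 of 87 had an unadjusted p under 0.05, against 1752 of 14959 genes. The smallest adjusted p values were those of Rps27 (-0.61 ± 0.10, edgeR adjusted p = 0.055) and Rpl39 (-0.50 ± 0.10, edgeR adjusted p = 0.0691), the X-linked gene of a small protein that lines the exit tunnel. Rpl39 had 311, 335 and 285 CPM in HSC hom, 446, 425 and 459 CPM in HSC het, and 347, 328 and 425 CPM in HSC WT, so that het lay above both other groups, above WT by a narrow margin, and hom overlapped WT. The widest changes were in Rpl38 (-0.74 ± 0.16, edgeR adjusted p = 0.134) and Rps29 (-0.72 ± 0.26, edgeR adjusted p = 0.342), and only Rps2, Rpl32l, Rpl3l and Rpl7l1 were positive. Without HSC het replicate 3, the median of the 77 genes was -0.13, with 70 negative.

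The count of calls in HSC depended on the test. Without a filter on low counts, the edgeR test called 21 members higher in HSC het than WT and 30 lower in HSC hom than het, and DESeq2 called 1 and 10. The direction of the median was unchanged in each of these. The share of all genes called in these fits is not given here, so the counts do not show whether members stand out from other genes.

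In HPC hom over HPC WT, Rps27 and Rpl3l rose and no member fell, 2.35% of 85 members tested, where 9.21% of 13855 genes were called. Rps3a3 and Rps4l were too low to be tested in HPC, and Rpl3l had 10 counts in knockout HPC libraries only. The median log2 fold change was 0.08, against 0.00 for all genes, with 72 of 85 members positive. An unadjusted p under 0.05 was found for 17 of 85 members, against 2997 of 13855 genes, so the share did not exceed the background. The median of the 77 genes other than the copies was also 0.08, but 0.03 without HPC WT replicate 3, with 51 positive, and 0.04 without HPC hom replicate 2, with 52 positive.

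Rps27 had 271, 306 and 327 CPM in HPC hom, 308, 277 and 308 CPM in HPC het, and 256, 247 and 233 CPM in HPC WT. Both knockout groups lay above every WT library. The log2 fold change was 0.30 ± 0.07 in hom (edgeR adjusted p = 0.0101) and 0.28 ± 0.07 in het (edgeR adjusted p = 0.0106), and these comparisons share the WT libraries. Without HPC WT replicate 3 or hom replicate 3, the hom call was lost (edgeR adjusted p up to 0.0608), and the het call was lost without HPC het replicate 1 or 3 or WT replicate 3 (edgeR adjusted p up to 0.0558). Rpl3l, at low counts, rose in both, with 0.685, 0.625 and 1.26 CPM in HPC hom, 0.894, 0.649 and 0.841 CPM in HPC het and 0.249, 0.399 and 0.281 CPM in HPC WT, at log2 fold changes of 1.46 ± 0.44 and 1.34 ± 0.45 (edgeR adjusted p = 0.0408 and 0.0476). With 1 library left out, its hom call did not hold in 5 of 6 fits, nor its het call in 6 of 6. The 6 HPC libraries with 10 counts of Rpl3l were the hom and het ones. The count rule thus favoured this direction, and no result is drawn from Rpl3l.

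In HPC het over HPC WT, 8 of 85 members rose (Rpl24, Rps27, Rpl37a, Rpl36, Rps19, Rps24, Rpl13 and Rpl3l) and none fell. This was 9.41% of members, where 16.1% of genes were called, so the share did not exceed the background. Rpl3l is counted here although it had 10 counts in knockout HPC libraries only. The median log2 fold change was 0.11, against 0.00 for all genes, with 78 positive, and het libraries were all above WT libraries for 16 members (18.8%), against 17.4% of genes. Rpl24, a large subunit gene mutated in the Belly spot and tail mouse, had 770, 751 and 798 CPM in HPC het and 690, 644 and 616 CPM in HPC WT, without overlap, at 0.25 ± 0.06 (edgeR adjusted p = 0.0102). Rps19, the gene most often mutated in Diamond-Blackfan anaemia, had 876, 943 and 899 CPM in HPC het and 799, 804 and 772 CPM in HPC WT, at 0.20 ± 0.06 (edgeR adjusted p = 0.0388). Its call was lost in 6 of 6 fits with 1 library left out (edgeR adjusted p 0.063 to 0.171). Of the 20 members listed for Diamond-Blackfan anaemia, Rps19, Rps24 and Rps27 rose and 17 did not pass.

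The median of the 77 genes other than the copies was 0.11 with all libraries, and 0.07 both without HPC het replicate 3 (62 positive) and without HPC WT replicate 3 (64 positive). Leaving out 1 library at a time left between 0 and 10 members called in HPC het, where 11.3% to 12.8% of all genes were called. Without HPC WT replicate 3, 0 members were called. Rpl13, Rps19 and Rpl3l lost their call in 6 of the 6 fits, and Rpl36 and Rps24 in 5. Rpl37a lost it in 4, Rps27 in 3 and Rpl24 in 1, the fit without HPC WT replicate 3. Fau also rose in HPC het (0.25 ± 0.06, edgeR adjusted p = 0.00696). Of all genes tested, 9.15% were called higher and 6.99% lower in HPC het. Of 24 initiation factor genes 6 fell and 0 rose, among them Eif2s2 (-0.41 ± 0.07, edgeR adjusted p = 0.000454) and Eif3c (-0.36 ± 0.07, edgeR adjusted p = 0.00105). Of 17 assembly chaperone genes 4 fell, including Ltv1, a 40S maturation factor, at -0.32 ± 0.07 (edgeR adjusted p = 0.00276), and of 18 genes of G2 and mitosis 8 fell. Of 77 mitochondrial ribosomal protein genes 5 fell (6.49%, no more than of all genes) and none rose, and of 19 further genes with the 5′ pyrimidine motif or of elongation 1 rose and none fell (median 0.06).

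Monocyte markers (11 genes, 1 at 0 in HPC het) summed to 788 to 799 CPM in HPC het and 414 to 470 CPM in HPC WT, and neutrophil markers (14 genes, 1 listed at 0 in each group) to 2107 to 2523 CPM in HPC het and 1692 to 1794 CPM in HPC WT. Megakaryocyte markers (10 genes, none at 0) summed to 257 to 355 CPM in HPC het and 525 to 592 CPM in HPC WT. In HPC hom they summed to 769 to 865 CPM for monocytes, 2775 to 2956 CPM for neutrophils and 352 to 550 CPM for megakaryocytes. T cell markers (12 genes, 2 at 0 in HPC hom and 3 in each of HPC het and HPC WT) summed to 34.6 to 41.5 CPM in HPC hom, 52.4 to 57.7 CPM in HPC het and 74.4 to 80.4 CPM in HPC WT. By gene, 8 of 10 monocyte and 5 of 13 neutrophil markers tested were called higher in HPC het than WT, and none lower. Of 10 megakaryocyte markers 5 were lower, and of 7 T cell markers 3 were lower and 1 higher. In HPC hom, 8 of 10 monocyte and 11 of 13 neutrophil markers were higher and none lower. There 1 of 10 megakaryocyte and 5 of 7 T cell markers were lower and none higher. The part of these markers in the ribosomal protein changes was not tested.

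HPC hom against HPC het gave no called member of 85 (median -0.03), where 9.4% of genes were called. An unadjusted p under 0.05 was found for 4 members, against 3307 of 13855 genes, and DESeq2 called 1 member. The largest positive values there were those of Rpl32l (0.37 ± 0.41) and Rpl22l1 (0.20 ± 0.07, edgeR adjusted p = 0.0862), and among the negative ones Rpl6l had -0.23 ± 0.37.

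**Figure D3:**
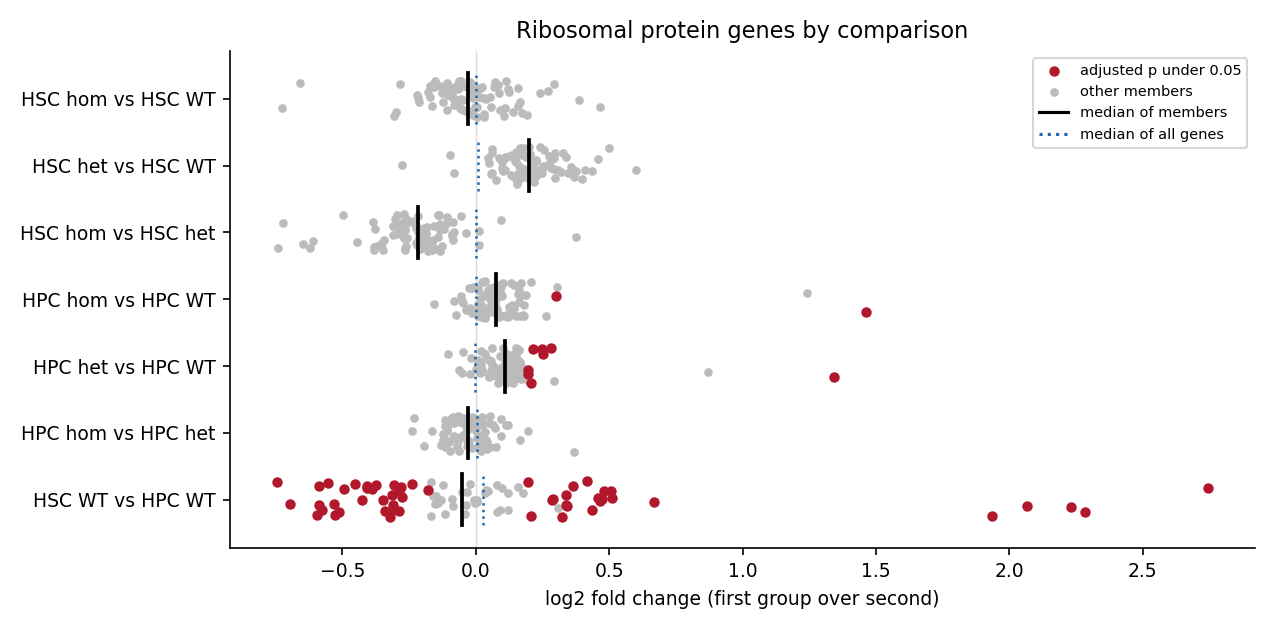
Log2 fold change of each ribosomal protein gene in 7 comparisons, first named group over second. Red points passed an adjusted p under 0.05 (edgeR), black bars are the median of members and dotted blue bars that of all genes tested; the median is 0.20 for HSC het over HSC WT and -0.22 for HSC hom over HSC het, and WT HSC over WT HPC spreads widely to both sides.

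The hom effect was tested for a difference between HSC and HPC in a fit of all 18 libraries. Rps27 was the 1 member called, with its hom effect lower in HSC than in HPC by 0.62 ± 0.13 on the log2 scale (edgeR adjusted p = 0.0158), 1.15% of 87 members where 2.79% of genes were called. Rps27 lay at 267 to 294 CPM in HSC hom, against 309 to 419 CPM in HSC WT, a difference that did not pass in HSC alone, and at 271 to 327 CPM in HPC hom, against 233 to 256 CPM in HPC WT. Its call was lost without HPC hom replicate 3 or HPC WT replicate 3 (edgeR adjusted p up to 0.0707). Next were Rps15a (-0.36 ± 0.10, edgeR adjusted p = 0.0515) and Rpl39 (-0.50 ± 0.14, edgeR adjusted p = 0.0528), and the median member was -0.13, with 69 of 87 negative. The median of the 77 genes other than the copies was -0.11, and leaving out 1 library moved it as far as -0.16 (without HPC WT replicate 1) and -0.05 (without HPC WT replicate 3 or HSC WT replicate 3, with 47 and 49 of 77 negative). For the het effect no member was called (median 0.08, 0 called by DESeq2), where 1.94% of genes were. No member had an unadjusted p under 0.05, against 1985 of 15431 genes. The median of the 77 genes other than the copies was 0.09, and without HSC het replicate 3 it was -0.0052, with 37 positive and 40 negative.

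**Figure D4:**
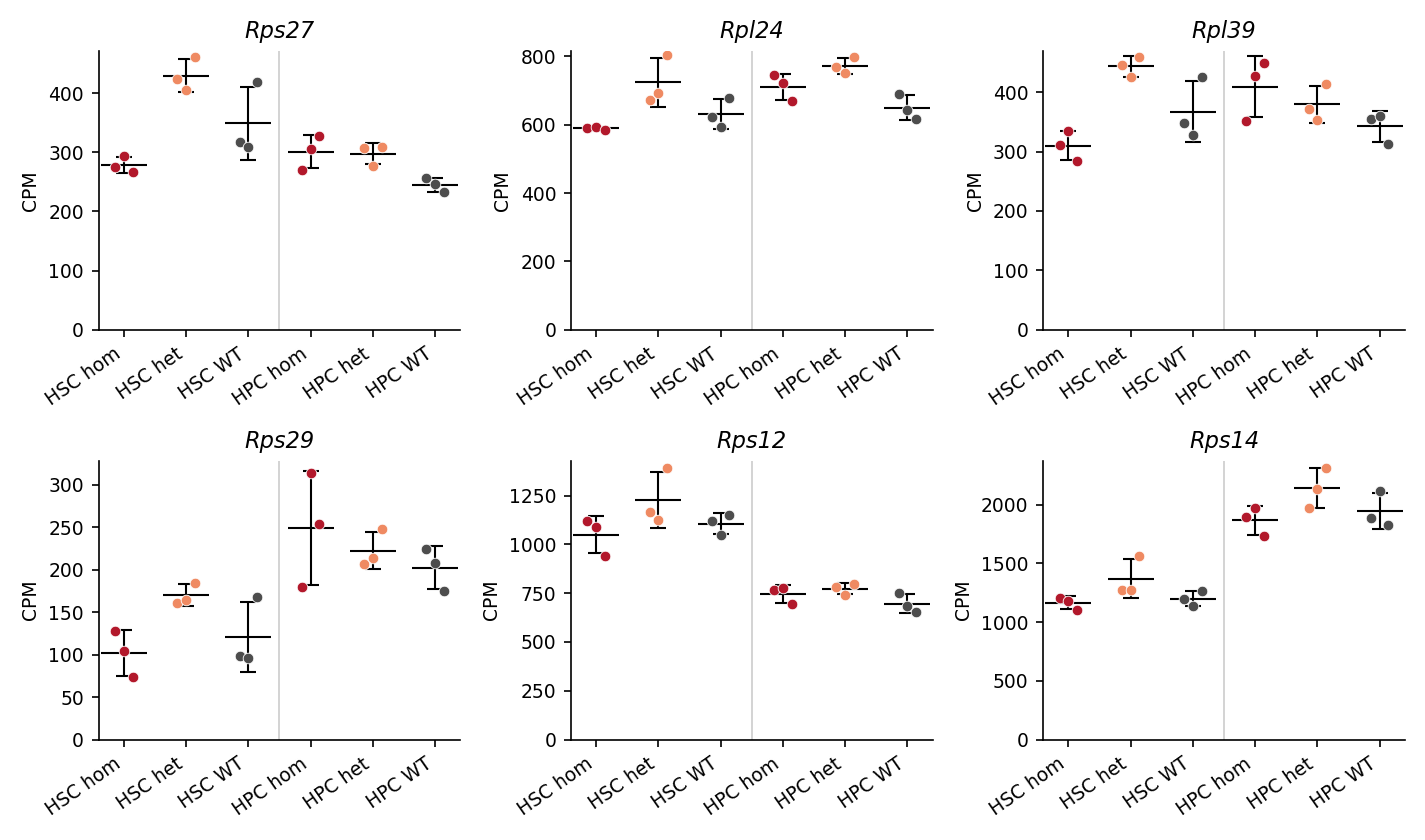
CPM of 6 ribosomal protein genes in each library, bars being the mean ± SD of 3 libraries. Rps27 lies at 267 to 294 CPM in HSC hom and at 271 to 327 CPM in HPC hom, below the HSC WT libraries and above the HPC WT libraries, while Rps12 is higher and Rps14 lower in every HSC library than in every HPC library.

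Members moved to both sides between WT HSC and WT HPC. Of the 87 members 23 were higher and 30 lower in HSC WT than in HPC WT, 60.9% in all, where 54.9% of 15431 genes were called. The median log2 difference was -0.05, against 0.03 for all genes. The 23 include Rps3a3 and Rps4l, which entered through HSC libraries. Of the other 85, 21 were higher and 30 lower (60%), with a median of -0.09. These 21 include Rpl3l, which had under 10 counts in each HPC WT library. With library size alone in place of TMM scaling the median of all genes moved by 0.18, to 0.21, the median member was 0.13, and 34 members were higher and 15 lower, so the direction of the set depends on the scaling. Relative to the median gene, the median member was 0.08 lower under either scaling.

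All directions below are under TMM scaling. Among small subunit genes, Rps12 was higher, with 1118, 1047 and 1152 CPM in HSC WT and 751, 685 and 654 CPM in HPC WT (0.67 ± 0.08, edgeR adjusted p = 6.11e-07). Rps14 was lower, with 1196, 1138 and 1263 CPM in HSC WT and 1888, 2116 and 1830 CPM in HPC WT (-0.70 ± 0.09, edgeR adjusted p = 4.65e-07). Rps12 and Rps14 did not overlap between any HSC and HPC libraries. Rps27 was 0.51 ± 0.09 higher (edgeR adjusted p = 9.68e-05), and Rps3 and Rps2, which line the mRNA entry channel, were 0.53 ± 0.09 and 0.59 ± 0.10 lower in HSC WT on the log2 scale. Rps29 had the widest negative difference, -0.75 ± 0.25 (edgeR adjusted p = 0.0223), but its call was lost with library size alone and without replicate 1 or 2 of HSC WT or of HPC WT (edgeR adjusted p up to 0.0859).

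In the stalk, Rplp1 (0.47 ± 0.09, edgeR adjusted p = 0.000179) and Rplp2 (0.51 ± 0.09, edgeR adjusted p = 5.29e-05), which form the stalk dimers, were higher in HSC WT, while Rplp0, their anchor, had -0.12 ± 0.07 and did not pass (edgeR adjusted p = 0.194). Rplp1 had 1004, 954 and 1050 CPM in HSC WT and 793, 718 and 654 CPM in HPC WT. Rpl10a, a large subunit gene, was 0.48 ± 0.08 higher (edgeR adjusted p = 2.45e-05), and Rpsa, the laminin receptor protein of the small subunit, 0.18 ± 0.08 lower (edgeR adjusted p = 0.0494), in HSC WT. With library size alone the Rpsa difference was -0.00037, and its call was lost without HPC WT replicate 1 or 2 or any HSC WT library (edgeR adjusted p up to 0.124). Of 20 members listed for Diamond-Blackfan anaemia, 2 were higher and 8 lower, 50% of them, which is not above the 54.9% of all genes. Rpl5 and Rpl11, which with 5S rRNA bind Mdm2, had -0.34 ± 0.07 (lower, edgeR adjusted p = 0.00023) and -0.15 ± 0.09 (edgeR adjusted p = 0.172).

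Rpl36a and its autosomal paralog Rpl36al were lower together in HSC WT, by 0.58 ± 0.09 and 0.59 ± 0.09 on the log2 scale (edgeR adjusted p = 1.26e-05 and 1.73e-05). Rpl36a had 312, 268 and 347 CPM in HSC WT and 500, 463 and 420 CPM in HPC WT, all apart. Rpl7l1 was 0.53 ± 0.07 lower in HSC WT (edgeR adjusted p = 1.6e-06), while Rpl7 was 0.21 ± 0.07 higher (edgeR adjusted p = 0.0158), a call lost without HSC WT replicate 1 or 3 or HPC WT replicate 2 or 3 (edgeR adjusted p up to 0.113). Rpl3 was 0.41 ± 0.07 lower in HSC WT, while Rpl22 (0.12), Rpl22l1 (-0.09) and Rps27l (-0.12) did not pass. The low paralog Rpl3l had 2.23 ± 0.39, but it had under 10 counts in each HPC WT library, so no result is drawn from it. Of the 4 X-linked members, Rpl36a and Rpl10 (-0.37 ± 0.07, edgeR adjusted p = 0.000186) were lower in HSC WT, and Rps4x (0.03 ± 0.07) and Rpl39 (0.10 ± 0.10) did not pass.

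Of the copies that RefSeq lists as pseudogenes, Rps3a2 (2.28 ± 0.26) and Rpl6l (1.94 ± 0.30), which had 10 counts in all 18 libraries, were higher in HSC WT. Rps3a2 had 9.01, 8.22 and 7.62 CPM in HSC WT and 1.79, 2.24 and 1.08 CPM in HPC WT. Rps3a3 lay at 0.781 to 1.02 CPM in HSC WT and at 0.0938 to 0.199 CPM in HPC WT, with 2 of the 3 HPC WT libraries under the 3-count floor. It passed the count rule through HSC libraries alone, so the rule favoured this direction and no result is drawn from it. The annotated ribosomal protein pseudogenes, which the members leave out, took 0.0512% to 0.056% of counts in HSC WT and 0.0124% to 0.0141% in HPC WT. In HSC hom their share was 0.0383% to 0.0456%, below every HSC het and HSC WT library (exact permutation p = 0.1 against WT, adjusted p = 0.35). Reads of copies and parents can be placed wrongly, and such placement was not tested.

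**Figure D5:**
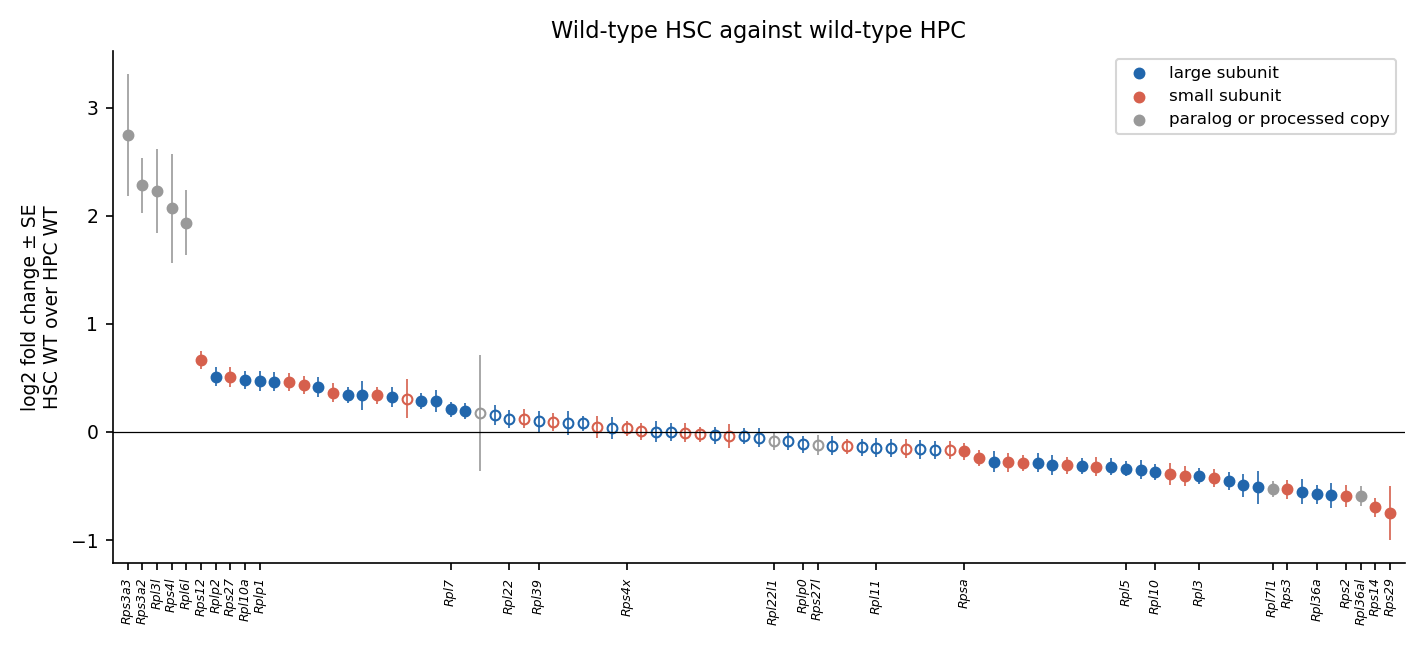
Log2 fold change ± SE of the 87 ribosomal protein genes, HSC WT over HPC WT, in descending order, with labels for genes described in the text. Filled points passed an adjusted p under 0.05 (edgeR) and open points did not. Rps12 has 0.67 and Rps14 -0.70, and the copies Rps3a2 (2.28), Rpl3l (2.23) and Rpl6l (1.94) stand among the highest points. Beside them are Rps3a3 and Rps4l, which entered the fit through HSC libraries. Rpl3l had under 10 counts in each HPC WT library.

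Of all genes tested, 27.7% were higher and 27.2% lower in HSC WT than in HPC WT. Of 24 initiation factor genes 21 were lower and 2 higher, led by Eif2s3x (-1.42 ± 0.06, edgeR adjusted p = 2.93e-14), and of 17 assembly chaperones 11 were lower and 0 higher. Of 19 further genes with the 5′ pyrimidine motif or of elongation, 13 were lower, including Npm1 (-1.15 ± 0.08), and 1 was higher. Larp1, the repressor that binds the motif, was 0.89 ± 0.06 lower (edgeR adjusted p = 9.54e-11). Of 77 mitochondrial ribosomal protein genes 25 were lower and 8 higher (42.9% called, below the share of all genes). Of 14 small nucleolar RNA host genes 7 were lower, among them Gas5 (-1.07 ± 0.09), and 1 was higher (57.1% called, near the 54.9% of all genes). Immediate-early genes, which respond to cell handling, had 9 of 14 higher and 1 lower in HSC WT (median 1.77). Neutrophil markers summed to 143 to 159 CPM in HSC WT and 1692 to 1794 CPM in HPC WT, with 3 and 1 of 14 at 0. Of 13 neutrophil markers tested, 11 were called lower and 2 higher in HSC WT. The part of these genes in the ribosomal protein differences was not tested.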

How the data were processed

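Members and gene lists were chosen with earlier results of these data known. The authors deposited raw read-pair counts per gene, 1 table per population, made with featureCounts 2.0.6 per the file headers, unstranded, with exons of an mm10 RefSeq annotation added up per gene and reads of several placements or in several genes not counted. The submitters' processing notes name Trim Galore 0.6.10, STAR 2.7.11a and the mm39 build; coordinates here are those of the tables, mm10. Exon lengths in the tables served for TPM.

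Counts were tested with the edgeR 4.0.16 quasi-likelihood test (robust, TMM factors, filterByExpr, R 4.3.3), adjusted by Benjamini-Hochberg over all genes tested, in 1 fit of 9 libraries per population and 1 of all 18. CPM use the TMM factors of the 18-library fit. Scripts were tested on simulated data. Alternatives included DESeq2 1.42.0, other scalings and filters, a replicate block and leaving out each library. No 2 libraries were duplicates. Named genes were Runx2, up to 6 called members per direction and comparison by p, paralog pairs, stalk and 5S genes, Rpsa, Rps19, the members at the extremes of TPM, of the count rule and of each comparison, and up to 3 called genes of each other list. Rps15a, Rpl36 in HSC, the fold ranges between libraries, Ddx3y and Xist were chosen after their values were seen. Some genes that the rule would name are not reported here. The CUT&Tag samples were not analysed here.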

Additional observations from a re-analysis of the deposited data

Results flagged for a closer look

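The hom effect on Rps27 differed between the populations by the test of the difference itself: it was lower in HSC than in HPC by 0.62 on the log2 scale, value -0.62 ± 0.13 (edgeR adjusted p = 0.0158). Rps27 was at 267 to 294 CPM in the 3 HSC hom libraries and 309 to 419 CPM in HSC WT, and at 271 to 327 CPM in the 3 HPC hom libraries and 233 to 256 CPM in HPC WT. The difference in HSC alone did not pass. The call was lost without HPC hom replicate 3 or HPC WT replicate 3 (edgeR adjusted p up to 0.0707). It was 1.15% of members, where 2.79% of genes were called, and population cannot be told apart from sex and table. Groups of 3 libraries were not searched for outlying values.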

How the results depend on the processing

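Without a filter on low counts, 5 members were called in HSC hom over WT, 21 in HSC het over WT and 30 in HSC hom over het (0 in each with the filter), 4 in HPC het over WT (against 8), 1 in HPC hom over het (against 0), 7 for the hom effect (against 1) and 1 for the het effect (against 0). DESeq2 called 1, 1 and 10 in those HSC comparisons, 4 in HPC hom over WT (against 2), 11 in HPC het over WT, 1 in HPC hom over het and 5 for the hom effect. Fitting only the groups compared gave 1 in HSC het over WT, 1 in HPC hom over WT, 5 in HPC het over WT and 2 for the hom effect. TMM factors without the members gave 5 in HPC het over WT, and a filter of 1 CPM gave 1 in HPC hom over WT. With library size alone the median of HSC WT over HPC WT was 0.13 in place of -0.05. The cause of these differences was not tested, and the share of all genes called under each setting is not given here.

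Leaving out each library gave these ranges of called members, with the share of all genes called in brackets. In HSC they were 0 to 2 in hom over WT (0.314% to 4.17%) and 0 in het over WT (0.013% to 0.0453%). HSC hom over het gave 0 to 3 (0.00652% to 2.67%). In HPC, 0 to 5 were called in hom over WT (6.15% to 8.44%) and 0 to 10 in het over WT (11.3% to 12.8%). HPC hom over het gave 0 to 1 (4.94% to 8.29%), and HSC WT over HPC WT 47 to 51 (47.2% to 49.8%). The hom effect gave 0 to 2 (0.941% to 5.96%) and the het effect 0 in each fit (0.872% to 1.84%). The 2 and 3 in HSC both came without HSC hom replicate 3, where the shares were 4.17% and 2.67%.

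Deviations of same-numbered libraries correlated between -0.176 and 0.186 in HSC and between -0.106 and 0.259 in HPC. Different-numbered ones ranged from -0.236 to 0.268 and from -0.303 to 0.289. Between hom and WT, same-numbered values were all positive (0.0456 to 0.186 in HSC, 0.0499 to 0.259 in HPC). Different-numbered values there were -0.163 to -0.00439 and -0.217 to 0.102. Same-numbered values of het with hom or WT had both signs, so pairing by replicate number was not settled. The replicate block gave 2 members for the hom effect, 1 in HPC hom over WT, 6 in HPC het over WT, 51 in HSC WT over HPC WT and 0 elsewhere. Called genes named with a fold change in the text gave, with the other called members of HPC het, 39 results, recomputed under the alternatives that kept every library: none reversed, 286 values kept their call and 24 lost it. With 3 libraries a group, the share of counts cannot reach an exact p below 0.1.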
